A study of Mus musculus with 2 samples.

Results

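The genes described here code for the receptors of the transmitter glutamate and for a set of proteins that travel with them: 4 AMPA subunits, 7 NMDA subunits, 5 kainate subunits, 1 delta subunit, 7 metabotropic receptors, 4 auxiliary subunits and 2 scaffolds, 30 names in all. They were chosen by name, and a gene was kept if it had a row and at least 20 unique molecular identifiers (UMIs, each standing for 1 captured RNA molecule) over both libraries. This held for 29 of the 30, and Grm6 was not analysed here. The tables list 23912 genes, of which 17985 reached 20 UMIs. The nuclei came from TRAP2 mice aged 8-12 wk, a strain in which a drug-inducible Cre recombinase is made from the Fos locus, after AAV-retro-H2B-GFP had been given into the lumbar spinal cord. The study sorted hindbrain nuclei of descending neurons active in 1 of 2 painful conditions, labelled SNI with brush and hot water bath, and profiled them with the 10x 3' kit. Hindbrains of 1 treatment were pooled, so each condition is 1 library, animals cannot be told apart, and no p-value was computed.

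Glutamate is the main fast excitatory transmitter of the hindbrain. AMPA receptors carry most of the fast current, NMDA receptors need depolarisation as well as glutamate and admit calcium, kainate receptors shape excitability and release on both sides of the synapse, delta receptors act as adhesion-like proteins that bind cerebellins, and metabotropic receptors signal through G proteins. Each ionotropic receptor is a tetramer, so which subunit genes a neuron transcribes sets which receptors it can build. Serotonergic neurons of the raphe, which make the serotonin-synthesising enzyme Tph2, and inhibitory and excitatory reticulospinal neurons all send axons to the cord, and the question is how the subunit genes are spread over these classes.

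Nuclei were put in classes by their own transmitter UMIs, with glutamate receptor genes left aside. Inhibitory nuclei, with at least 75% of transmitter UMIs from Gad1, Gad2 and Slc6a5 (GABA synthesis and glycine uptake), numbered 103 in the SNI with brush library and 61 in the hot water bath library. Nuclei with at least 10 Tph2 UMIs numbered 3 with SNI with brush and 26 with the hot water bath, and nuclei with at least 75% Slc17a6 UMIs (a vesicular glutamate transporter) numbered 113 with SNI with brush and 252 with the hot water bath. The serotonin transporter gene Slc6a4 stood at 1118 CPM (UMIs of a gene per 1000000 UMIs of the class) in the Tph2 nuclei of the SNI with brush library and 312 CPM in those of the hot water bath library, against 0.934 and 0.296 CPM in Slc17a6 nuclei. The libraries held 11298755 UMIs in 288 nuclei (SNI with brush) and 16344606 UMIs in 425 nuclei (hot water bath), with medians of 32852.5 and 36962 UMIs per nucleus and no shared barcode. Within a library the class medians lay within 31589 to 41951 UMIs (SNI with brush) and 32375 to 40064 UMIs (hot water bath). The remaining neuronal nuclei, 52 and 83, had mixed or few transmitter UMIs, and 15 nuclei of the SNI with brush library with more liver-gene than neuron-gene UMIs were set aside.

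**Figure D1:**
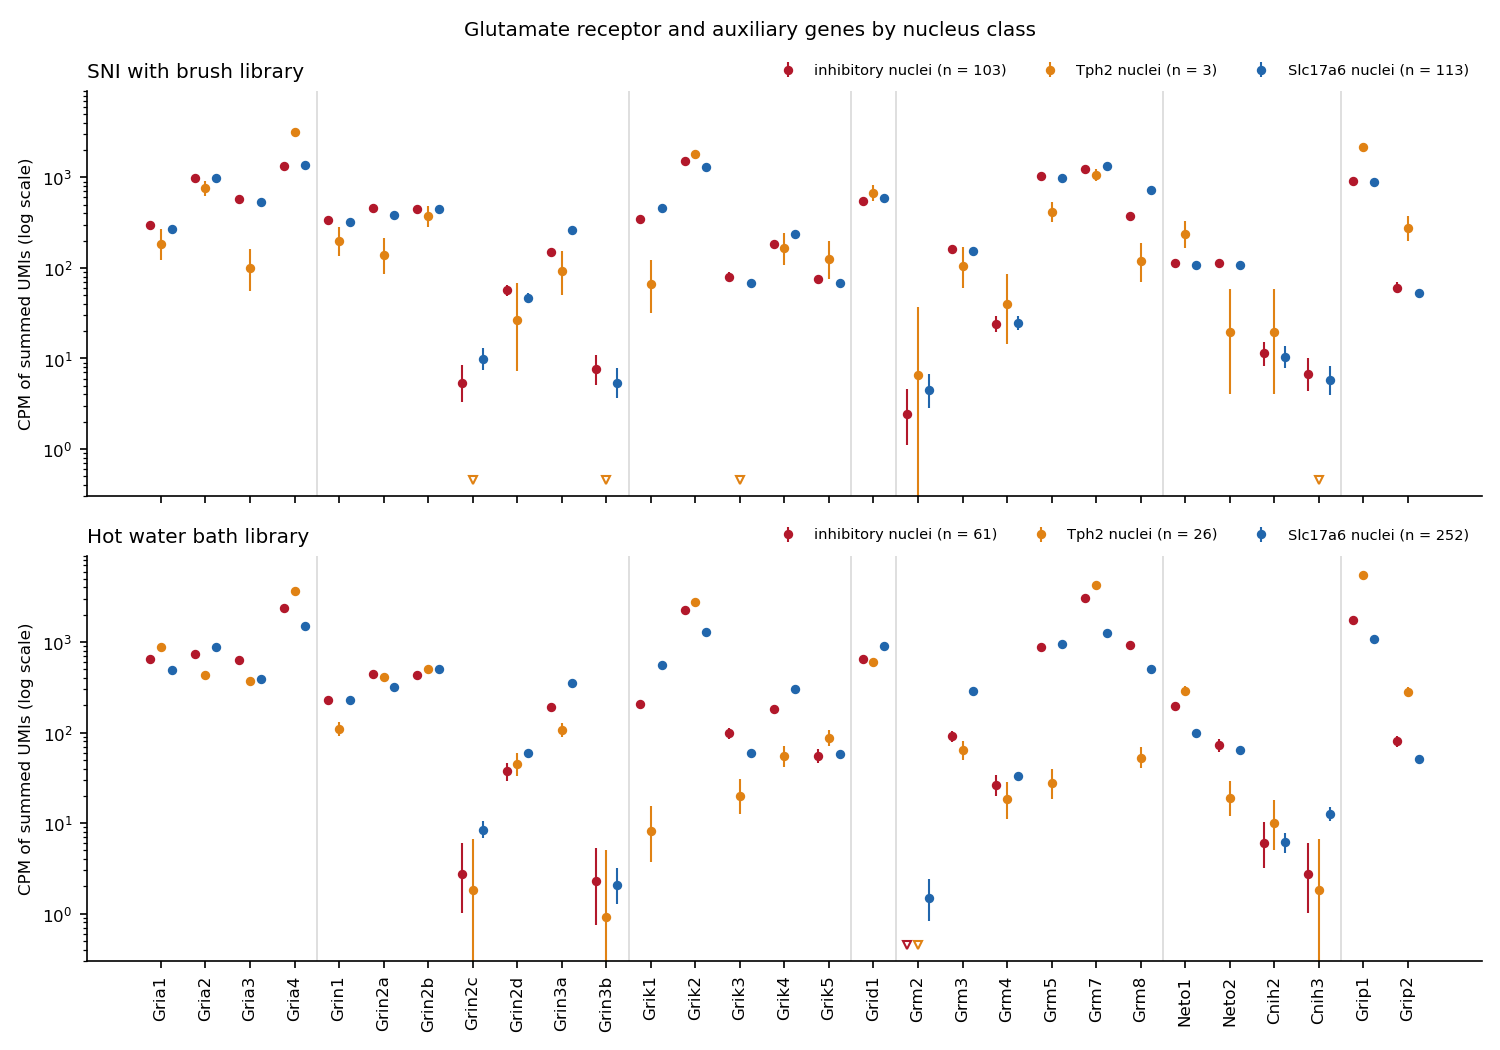
Summed level of each gene (CPM, log axis) in inhibitory (red), Tph2 (orange) and Slc17a6 (blue) nuclei, with the SNI with brush library above and the hot water bath library below; bars are exact 95% Poisson intervals for counting error, open triangles mark classes without a UMI, and vertical lines part AMPA, NMDA, kainate, delta, metabotropic, auxiliary and scaffold genes. Of the classes plotted, the Tph2 nuclei of the hot water bath library stand apart at Grik1 (8.21 CPM, against 555 in Slc17a6 nuclei), Grm5 (27.4 against 940.2) and Grip1 (5470.4 against 1084).

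The 26 Tph2 nuclei of the hot water bath library had a different subunit makeup from the 252 Slc17a6 nuclei of that library. Of 28 genes with at least 20 UMIs over both classes, 9 were at least 1.5-fold higher in Tph2 nuclei, against 14.3% of all genes tested, and 15 were at least 1.5-fold lower, against 26% of all. The 9 were Gria1, Gria4, Grik2, Grik5, Grm7, Neto1, Cnih2, Grip1 and Grip2. The 15 were Gria2, Grin1, Grin2c, Grin3a, Grin3b, Grik1, Grik3, Grik4, Grid1, Grm3, Grm4, Grm5, Grm8, Neto2 and Cnih3. Each ratio below is the log2 of a ratio of CPM with 0.5 UMI added to both sums, and its interval covers counting error only. The median log2 ratio was -0.61 over the 28 genes and -0.12 over all genes tested. Of these 24 genes, 20 had the same direction in the 3 Tph2 nuclei of the SNI with brush library, 16 of them by at least 1.5-fold, while Gria1, Grid1, Grm4 and Grm7 had the opposite one. That is 83.3% and 66.7% of the 24, against 65.6% and 47.7% of all genes past 1.5-fold with the hot water bath. Grik3, Grin2c, Grin3b and Cnih3, among the 16, had no UMI in those 3 nuclei, and the last 3 stood in Slc17a6 nuclei below the 19.8 CPM that 3 UMIs would give there. The calls of Cnih2, Grin3b, Grin2c, Grik5 and Grid1 rest on few UMIs or lie at the 1.5-fold limit, and each is lost under at least 1 other setting. Tph2 nuclei of the hot water bath library held Gad2 at 317 CPM, beside 328 in inhibitory and 2.27 in Slc17a6 nuclei. Against those inhibitory nuclei, 5 of 25 genes were at least 1.5-fold higher, Gria4, Grik5, Cnih2, Grip1 and Grip2, with 10.6% of all genes. Lower were 10, Gria2, Gria3, Grin1, Grin3a, Grik1, Grik3, Grik4, Grm5, Grm8 and Neto2, with 24% of all. Gria1, Grik2, Grm7 and Neto1 were thus past 1.5-fold only over Slc17a6 nuclei.

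**Figure D2:**
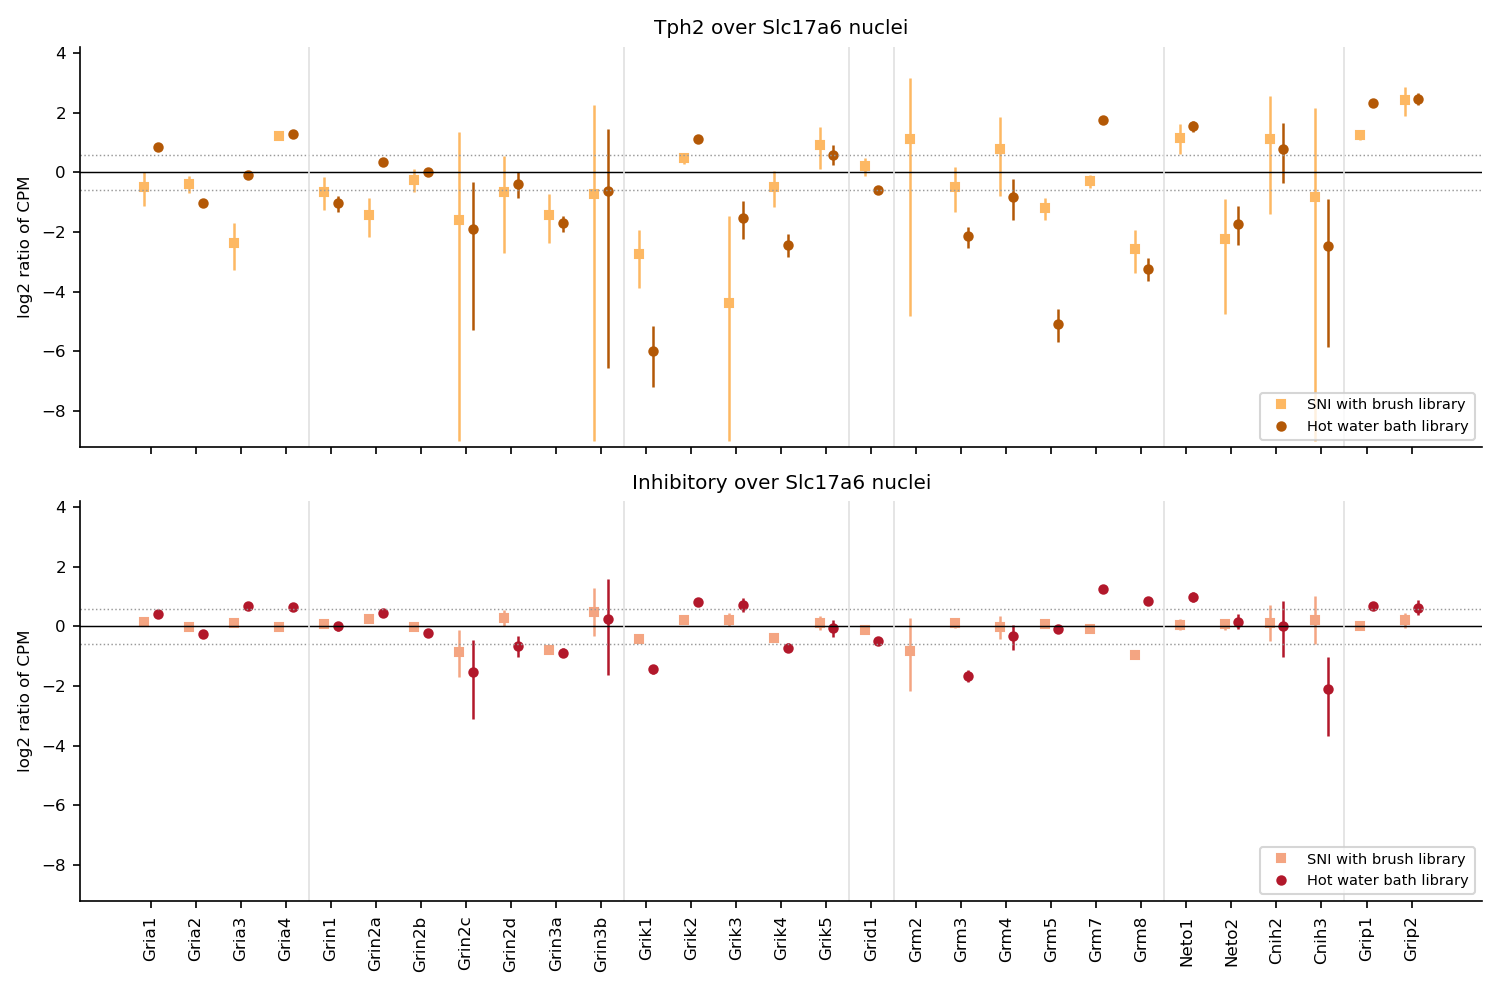
Log2 ratio of CPM for each gene, Tph2 over Slc17a6 nuclei (upper panel) and inhibitory over Slc17a6 nuclei (lower panel), in the SNI with brush library (pale squares) and the hot water bath library (dark circles), for genes with at least 20 UMIs over both classes; lines are exact 95% intervals for counting error, cut at the axis limit, and dotted lines mark 1.5-fold. In the upper panel Grik1 reaches -6.00 and Grm5 -5.08 in the hot water bath library, while in the lower panel all plotted genes lie between -2.09 and 1.26.

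With the hot water bath, Gria4, Grik2 and Grip2 were past 1.5-fold higher and Gria2 lower in Tph2 than in Slc17a6 nuclei. The promoters of these 4 genes are shown because they carry that pattern. Each is the RefSeq window of 250 bases before to 50 bases after the transcript start in GRCm38.p6, all on the minus strand and written 5′ to 3′. Gria4 lies at chr9:4796185-4796484, Grik2 at chr10:49788705-49789004, Grip2 at chr6:91807344-91807643 and Gria2 at chr3:80802786-80803085. Capitals mark matches on either strand to CCGGAA (the core of ETS factor sites), TGCGCA (within the site of NRF1) or GGGCGG (the GC box).
Gria4: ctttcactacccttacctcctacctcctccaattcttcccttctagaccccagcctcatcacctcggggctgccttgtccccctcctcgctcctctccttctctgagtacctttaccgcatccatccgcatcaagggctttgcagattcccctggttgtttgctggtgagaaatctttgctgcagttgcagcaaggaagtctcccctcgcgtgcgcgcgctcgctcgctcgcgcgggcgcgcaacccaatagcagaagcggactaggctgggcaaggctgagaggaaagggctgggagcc
Grik2: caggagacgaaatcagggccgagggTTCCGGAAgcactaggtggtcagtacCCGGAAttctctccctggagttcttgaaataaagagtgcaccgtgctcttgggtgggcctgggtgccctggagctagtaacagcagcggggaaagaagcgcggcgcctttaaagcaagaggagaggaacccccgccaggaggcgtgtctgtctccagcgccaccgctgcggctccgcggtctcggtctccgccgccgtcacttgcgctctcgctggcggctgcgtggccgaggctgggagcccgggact
Grip2: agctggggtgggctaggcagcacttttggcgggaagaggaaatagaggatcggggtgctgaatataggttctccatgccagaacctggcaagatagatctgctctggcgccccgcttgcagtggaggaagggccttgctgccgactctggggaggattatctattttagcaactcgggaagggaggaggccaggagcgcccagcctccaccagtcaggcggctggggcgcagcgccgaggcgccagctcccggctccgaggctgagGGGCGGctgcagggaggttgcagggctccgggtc
Gria2: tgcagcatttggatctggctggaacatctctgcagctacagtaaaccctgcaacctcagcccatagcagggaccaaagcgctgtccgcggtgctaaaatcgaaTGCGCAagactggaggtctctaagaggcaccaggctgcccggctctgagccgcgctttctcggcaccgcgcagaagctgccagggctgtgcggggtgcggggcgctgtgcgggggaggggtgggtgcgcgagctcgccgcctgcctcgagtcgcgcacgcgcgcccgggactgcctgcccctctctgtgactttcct
Windows of 20 of the 30 genes were read, 26 windows in all. Grik2 alone among these genes held CCGGAA, with 3 matches of which a pair overlaps on opposite strands, while 14.9% of 32851 mouse windows held it. The sequence TGCGCA was in windows of 4 of the 20 genes, Gria2 among them, and in 7.76% of all windows. GGGCGG was in windows of 14 of the 20 genes, against 35.7% of all windows. A gene was counted if any of its windows matched, whereas the percentages are per window, so these are unlike measures. These matches describe letters in a window of fixed length and were set against no binding data.

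By family, AMPA subunits took a larger and NMDA subunits a smaller part of receptor UMIs in Tph2 nuclei. In the hot water bath library AMPA genes gave 36.7% of the UMIs of all 23 receptor genes in Tph2 nuclei and 30.04% in Slc17a6 nuclei, and NMDA genes 8.08% and 13.4%. The 3 Tph2 nuclei of the SNI with brush library showed the same order, with 43.8% AMPA and 8.64% NMDA, against 29.8% and 14% in Slc17a6 nuclei. Kainate genes gave 20.4% in Tph2 and 20.6% in Slc17a6 nuclei of the hot water bath library, so the sum of that family was nearly alike while its members were not. The metabotropic share went opposite ways in the libraries, 18.2% in Tph2 against 30.3% in Slc17a6 nuclei with SNI with brush and 30.7% against 27.7% with the hot water bath. Inhibitory nuclei had 31.3% AMPA, 14.2% NMDA and 27.7% metabotropic UMIs in the SNI with brush library, each within 2.59 points of its Slc17a6 nuclei. In the hot water bath library they had 31.3%, 9.43% and 34.9% for the same families. Shares compare classes over the same genes, but gene length, which raises the UMI count of long genes in nuclear RNA, may weigh differently by class. With all genes parted by span into 5 groups, median log2 ratios of inhibitory to Slc17a6 nuclei were 0.21 (shortest) and -0.03 (longest) with SNI with brush. With the hot water bath they were 0.11 and -0.02, and for Tph2 nuclei -0.12 and -0.17. The part of length in the shares was not tested.

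**Figure D3:**
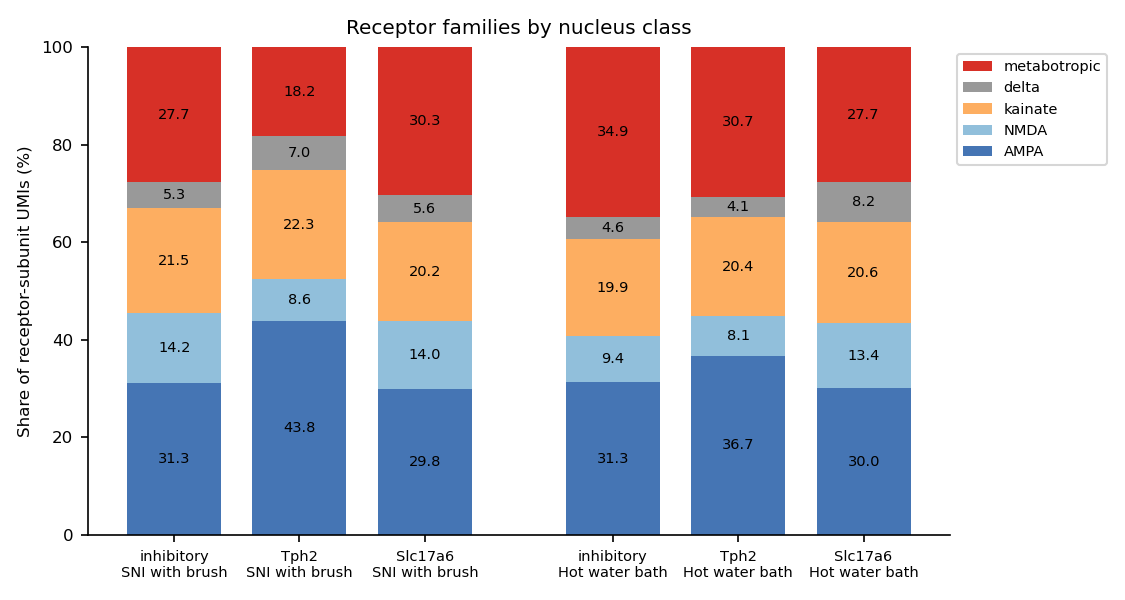
Share (%) of the summed UMIs of 23 receptor genes by family, in inhibitory, Tph2 and Slc17a6 nuclei of the SNI with brush library (left) and the hot water bath library (right); the numbers in the bars are the shares. The AMPA share is highest in the Tph2 nuclei of both libraries, at 43.8% and 36.7%.

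Among the AMPA subunits, Tph2 nuclei had high Gria4 and low Gria2. Gria4 had 1337 CPM in inhibitory, 3188 in Tph2 and 1359.6 in Slc17a6 nuclei of the SNI with brush library, and 2400.4, 3666 and 1516 CPM in the same classes of the hot water bath library. In single nuclei of the hot water bath library Gria4 ran from 2122 to 6192 CPM with a median of 3282 in Tph2 nuclei, and from 435 to 3483 CPM with a median of 1399.7 in Slc17a6 nuclei. These ranges overlap, with 13 of the 26 Tph2 nuclei below the highest Slc17a6 nucleus and 37 of the 252 Slc17a6 nuclei above the lowest Tph2 nucleus, and the summed log2 ratio was 1.27 (95% interval 1.22 to 1.32). The 3 Tph2 nuclei of the SNI with brush library had 2133, 4409.9 and 3055 CPM, a ratio of 1.23 to the Slc17a6 nuclei there. Gria2 had 987 CPM in inhibitory, 754 in Tph2 and 993 in Slc17a6 nuclei of the SNI with brush library, and 740.2, 436 and 886 CPM in the same classes of the hot water bath library. Gria2, whose edited form keeps calcium out of the channel, was thus lowest by summed level in Tph2 nuclei in both libraries, with ratios of -0.39 and -1.02 to Slc17a6 nuclei. The first ratio is under 1.5-fold. Those 3 nuclei had 678, 1311 and 461 CPM of Gria2, the second above the summed level of the Slc17a6 nuclei there. Of all AMPA UMIs in Tph2 nuclei, Gria4 gave 75.4% and 68.5% and Gria2 17.8% and 8.15% in the SNI with brush and hot water bath libraries, against 43.1% and 46.1% for Gria4 and 31.5% and 27% for Gria2 in Slc17a6 nuclei. Every Tph2 nucleus of the hot water bath library had at least 52.9% of its AMPA UMIs from Gria4, whereas 78 of 252 Slc17a6 nuclei (31.0%) had more than 50% from it.

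Per kb of gene span the order of levels differs from that of UMIs, since Gria4 spans 378 kb and Gria2 121 kb. On that scale Gria2 led in Slc17a6 nuclei, with 7.3 CPM per kb against 4.01 for Gria4 in the hot water bath library, and Gria4 led in Tph2 nuclei, with 9.69 against 3.59 for Gria2. The 3 Tph2 nuclei of the SNI with brush library gave the same order, 8.43 for Gria4 and 6.21 for Gria2. Gria1 stood at 297 CPM in inhibitory, 185 in Tph2 and 266 in Slc17a6 nuclei with SNI with brush, and at 652 CPM in inhibitory, 877 in Tph2 and 490.4 in Slc17a6 nuclei with the hot water bath. Gria1 was the AMPA subunit whose Tph2 value changed side between libraries, at -0.50 (95% interval -1.12 to 0.01) with SNI with brush and 0.84 (95% interval 0.74 to 0.94) with the hot water bath. Gria3 stood at 581 CPM in inhibitory, 99.2 in Tph2 and 535 in Slc17a6 nuclei with SNI with brush, and at 640.2 CPM in inhibitory, 371 in Tph2 and 394 in Slc17a6 nuclei with the hot water bath. The Gria3 UMIs of the SNI with brush Tph2 nuclei came from 1 of the 3.

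Among the NMDA subunits, Grin1 stood lower in Tph2 than in Slc17a6 nuclei of both libraries, and Grin2b differed little. Grin1 had 337 CPM in inhibitory, 198 in Tph2 and 319 in Slc17a6 nuclei of the SNI with brush library, and 226, 109.5 and 226 CPM in the same classes of the hot water bath library. Grin1 codes for the subunit that every NMDA receptor needs, and its ratio of Tph2 to Slc17a6 nuclei was -0.66 (SNI with brush) and -1.04 (hot water bath). The gene overlaps an antisense gene, Grin1os, and no source used here says whether counting used strand. Grin2a stood at 458 CPM in inhibitory, 139 in Tph2 and 387 in Slc17a6 nuclei with SNI with brush, and at 439 CPM in inhibitory, 409 in Tph2 and 321 in Slc17a6 nuclei with the hot water bath. Grin2b stood at 442 CPM in inhibitory, 377 in Tph2 and 452 in Slc17a6 nuclei with SNI with brush, and at 437 CPM in inhibitory, 505 in Tph2 and 504 in Slc17a6 nuclei with the hot water bath. These subunits bind glutamate and set how long the channel stays open. Grin2a and Grin2b differed by less than 1.5-fold between Tph2 and Slc17a6 nuclei of the hot water bath library, at 0.35 and 0.00, and Grin2b also in the SNI with brush library, at -0.25. Grin2d had 56.4 CPM in inhibitory, 26.5 in Tph2 and 46.7 in Slc17a6 nuclei of the SNI with brush library, and 37.1, 44.7 and 59 CPM in the same classes of the hot water bath library. Grin2c had 5.42 CPM in inhibitory, 0 in Tph2 and 9.9 in Slc17a6 nuclei of the SNI with brush library, and 2.75, 1.83 and 8.48 CPM in the same classes of the hot water bath library. Both stood low, and Grin2c had only 2 UMIs in the Tph2 nuclei of the hot water bath library and none in those of the SNI with brush library, where 3 UMIs would be 19.8 CPM.

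The Grin3 genes code for glycine-binding subunits that lower calcium entry. Grin3a stood at 149 CPM in inhibitory, 92.6 in Tph2 and 259 in Slc17a6 nuclei of the SNI with brush library, and 191, 107 and 351 CPM in the same classes of the hot water bath library. All Grin3a UMIs of the SNI with brush Tph2 nuclei came from 1 of the 3, at 351 CPM, above the summed level of the Slc17a6 nuclei there. By summed level Slc17a6 nuclei were highest in both libraries, and inhibitory nuclei lay -0.79 (95% interval -0.94 to -0.65) and -0.87 (95% interval -1.02 to -0.73) from them on the log2 scale. In single Slc17a6 nuclei of the hot water bath library Grin3a ran from 0 to 1128 CPM with a median of 328, against 0 to 708 CPM with a median of 156 in inhibitory and 0 to 629.7 CPM with a median of 76 in Tph2 nuclei. Grin3b stood at 7.59 CPM in inhibitory, 0 in Tph2 and 5.42 in Slc17a6 nuclei of the SNI with brush library, and 2.29, 0.913 and 2.07 CPM in the same classes of the hot water bath library. Grin3b had 94 UMIs in all, 1 of them in a Tph2 nucleus, and its order across classes cannot be read at this depth.

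In the kainate family, nearly all UMIs in Tph2 nuclei of the hot water bath library were of Grik2, a long gene. Grik2 had 1518 CPM in inhibitory, 1792 in Tph2 and 1301 in Slc17a6 nuclei of the SNI with brush library, and 2272, 2798 and 1284 CPM in the same classes of the hot water bath library. Grik2 ranged from 1739 to 4104 CPM with a median of 2698 over those 26 nuclei and from 152 to 4377 CPM with a median of 1115 over the Slc17a6 nuclei, and the summed log2 ratio was 1.12 (95% interval 1.07 to 1.18). Grik1 had 346 CPM in inhibitory, 66.1 in Tph2 and 465 in Slc17a6 nuclei of the SNI with brush library, and 205, 8.21 and 555 CPM in the same classes of the hot water bath library. Both genes code for subunits that form channels on their own. Grik1 had 9 UMIs in the 26 Tph2 nuclei, none above 33.9 CPM in any nucleus, and a ratio of -6.00 (95% interval -7.21 to -5.15). A nucleus with 31 Tph2 and 5 Slc17a6 UMIs that was called a doublet, and so left out, held 61 Grik1 UMIs, and with it the ratio is -3.20. Without that nucleus, the 8.21 CPM of Grik1 lies below its 26 CPM in the liver-gene nuclei of the SNI with brush library, which were not classed as neurons. With each nucleus thinned to 9000 UMIs, Grik1 was seen in 1 of 26 Tph2, 22 of 61 inhibitory and 192 of 252 Slc17a6 nuclei of the hot water bath library. In the SNI with brush library the Tph2 nuclei had 25.1, 167 and 28.8 CPM, a summed ratio of -2.74 to Slc17a6 nuclei.

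Of kainate UMIs, Grik2 gave 83.4% (SNI with brush) and 94.3% (hot water bath) in Tph2 nuclei, against 60.8% and 56.9% in Slc17a6 nuclei. Per kb of span, Grik2 gave 71.3% and Grik5 24.5% in Tph2 nuclei with the hot water bath, against 35.9% and 17.9% in Slc17a6 nuclei. In each of the 26 Tph2 nuclei the share of Grik2 UMIs was at least 82.6%, while over the Slc17a6 nuclei with at least 10 kainate UMIs it ran from 7.38% to 90.6%. Grik3 stood at 79.96 CPM in inhibitory, 0 in Tph2 and 68.2 in Slc17a6 nuclei with SNI with brush, and at 98.1 CPM in inhibitory, 20.1 in Tph2 and 59.1 in Slc17a6 nuclei with the hot water bath. Grik4 stood at 183 CPM in inhibitory, 165 in Tph2 and 236 in Slc17a6 nuclei with SNI with brush, and at 183 CPM in inhibitory, 54.8 in Tph2 and 299.5 in Slc17a6 nuclei with the hot water bath. Grik5 stood at 74.5 CPM in inhibitory, 126 in Tph2 and 68.9 in Slc17a6 nuclei with SNI with brush, and at 55 CPM in inhibitory, 86.7 in Tph2 and 57.7 in Slc17a6 nuclei with the hot water bath. Grik4 and Grik5 code for subunits that need a partner to form a channel. Grik4 lay on the low side of the Slc17a6 nuclei in inhibitory nuclei of both libraries (-0.37 and -0.71) and in Tph2 nuclei of the hot water bath library (-2.44 (95% interval -2.85 to -2.08)). Grik5 lay on the high side in Tph2 nuclei, at 0.90 and 0.59, the second being at the 1.5-fold limit.

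Grid1, the delta subunit in the list, was highest in the Slc17a6 nuclei of the hot water bath library. Grid1 stood at 547 CPM in inhibitory, 675 in Tph2 and 592 in Slc17a6 nuclei with SNI with brush, and at 645 CPM in inhibitory, 595 in Tph2 and 899.6 in Slc17a6 nuclei with the hot water bath. Its ratio of Tph2 to Slc17a6 nuclei was 0.20 (95% interval -0.11 to 0.47) with SNI with brush and -0.60 (95% interval -0.71 to -0.48) with the hot water bath, the second just past the 1.5-fold limit of 0.58 on the log2 scale.

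Among metabotropic receptors the Tph2 nuclei of the hot water bath library held Grm7 and little else. Grm7 had 1246 CPM in inhibitory, 1071 in Tph2 and 1327 in Slc17a6 nuclei of the SNI with brush library, and 3029, 4310.4 and 1267 CPM in the same classes of the hot water bath library. Grm7, a presynaptic receptor of low glutamate affinity that couples to inhibitory G proteins, ran from 1606 to 6836 CPM with a median of 4163 over the 26 Tph2 nuclei and from 0 to 5252 CPM with a median of 1055 over the Slc17a6 nuclei, a summed log2 ratio of 1.77 (95% interval 1.72 to 1.81). In the SNI with brush library the Tph2 nuclei had 151, 1120 and 1571 CPM and a ratio of -0.30, on the other side of 0. Grm5 had 1029 CPM in inhibitory, 417 in Tph2 and 973 in Slc17a6 nuclei of the SNI with brush library, and 878, 27.4 and 940.2 CPM in the same classes of the hot water bath library. Grm5, which couples to phospholipase C, had 30 UMIs in the 26 Tph2 nuclei, with 0 to 276 CPM with a median of 8.35, and a ratio of -5.08 (95% interval -5.67 to -4.59) to Slc17a6 nuclei. After thinning, a Grm5 UMI was seen in 6 of 26 Tph2, 55 of 61 inhibitory and 216 of 252 Slc17a6 nuclei, and Grm5 stood at 7.8 CPM in the liver-gene nuclei. All Grm5 UMIs of the SNI with brush Tph2 nuclei came from 1 of the 3, at 1502 CPM, and the others had none.

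Grm8, like Grm7 a group III receptor, was lower in Tph2 than in Slc17a6 nuclei of both libraries. Grm8 had 376 CPM in inhibitory, 119 in Tph2 and 724 in Slc17a6 nuclei of the SNI with brush library, and 919, 52.9 and 504 CPM in the same classes of the hot water bath library. The Tph2 to Slc17a6 ratio was -2.56 (95% interval -3.36 to -1.94) and -3.24 (95% interval -3.65 to -2.88), and 51.7% of the Grm8 UMIs of the 26 Tph2 nuclei lay in 1 nucleus. With the top Grm8 nucleus of each class left out, the hot water bath ratio is -4.17. In the liver-gene nuclei of the SNI with brush library Grm8 stood at 301 CPM, above its level in the Tph2 nuclei of either library. With SNI with brush, Grm7 gave 60.9% of metabotropic UMIs in Tph2 nuclei, Grm5 23.7% and Grm8 6.77%, against 41.4%, 30.4% and 22.6% in Slc17a6 nuclei. With the hot water bath, Grm7 gave 96.4% in Tph2 nuclei, Grm5 0.612% and Grm8 1.18%, against 41.8%, 31% and 16.6% in Slc17a6 nuclei. Per kb of span the Grm7 share was 89.3% in Tph2 and 25.9% in Slc17a6 nuclei with the hot water bath. In every one of the 26 Tph2 nuclei of that library Grm7 held at least 74.6%. Grm3 stood at 163 CPM in inhibitory, 106 in Tph2 and 152 in Slc17a6 nuclei with SNI with brush, and at 90.8 CPM in inhibitory, 63.9 in Tph2 and 285 in Slc17a6 nuclei with the hot water bath. Grm4 stood at 24.1 CPM in inhibitory, 39.7 in Tph2 and 24.7 in Slc17a6 nuclei with SNI with brush, and at 26.1 CPM in inhibitory, 18.3 in Tph2 and 33.2 in Slc17a6 nuclei with the hot water bath. Grm2 stood at 2.44 CPM in inhibitory, 6.61 in Tph2 and 4.48 in Slc17a6 nuclei with SNI with brush, and at 0 CPM in inhibitory, 0 in Tph2 and 1.48 in Slc17a6 nuclei with the hot water bath. Grm3 was highest in the Slc17a6 nuclei of the hot water bath library, and Grm2, its relative in group II, had 61 UMIs in all and none in the inhibitory or Tph2 nuclei of the hot water bath library, where 3 UMIs would be 1.38 and 2.74 CPM.

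**Figure D4:**
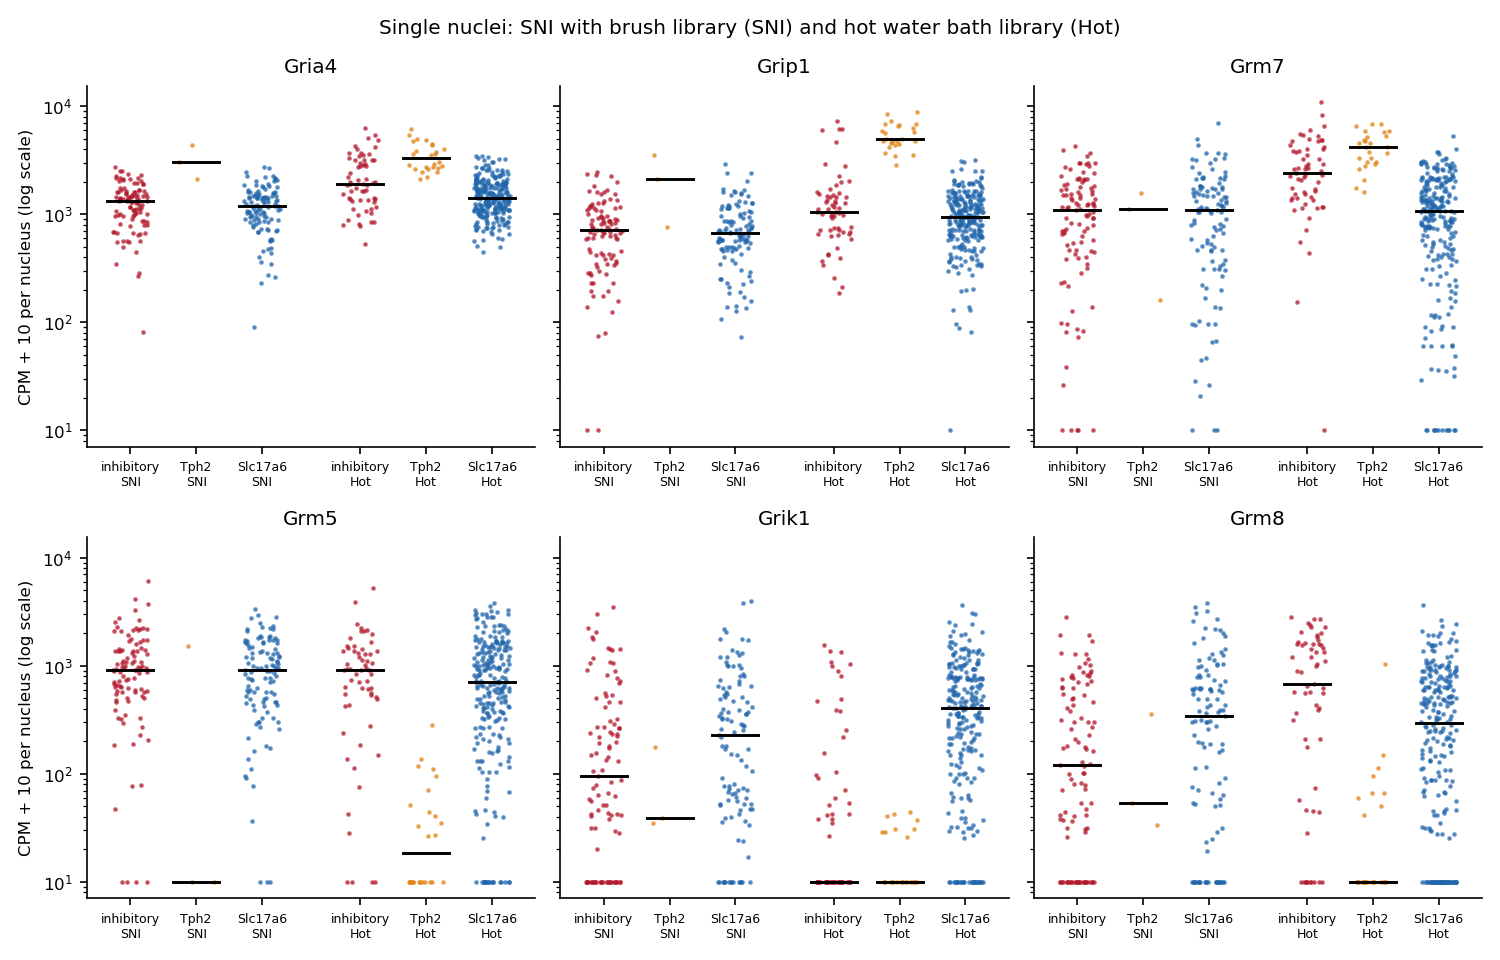
Level in single nuclei (CPM plus 10, log axis) of Gria4, Grip1, Grm7, Grm5, Grik1 and Grm8, by class, with the SNI with brush library (SNI) left and the hot water bath library (Hot) right in each panel; each point is a nucleus, points at 10 had no UMI, and black lines are medians. The 26 Tph2 nuclei of the hot water bath library lie high for Gria4, Grip1 and Grm7 (medians of 3282, 4921 and 4163 CPM) and at or near 0 for Grm5, Grik1 and Grm8 (medians of 8.35, 0 and 0 CPM).

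The scaffold genes showed the largest ratios toward Tph2 nuclei. Grip1 had 913 CPM in inhibitory, 2143 in Tph2 and 894 in Slc17a6 nuclei of the SNI with brush library, and 1754, 5470.4 and 1084 CPM in the same classes of the hot water bath library. Grip1 and Grip2 code for PDZ proteins that bind the tails of Gria2 and Gria3 subunits. Over single nuclei of the hot water bath library Grip1 ran from 2818 to 8850.4 CPM with a median of 4921 in Tph2 nuclei, against 0 to 3138 CPM with a median of 940.2 in Slc17a6 nuclei, and the ratio was 2.34 (95% interval 2.29 to 2.38). The Tph2 nuclei of the SNI with brush library had 753, 3552 and 2089 CPM, the lowest of them below the summed level of the Slc17a6 nuclei there, and a summed ratio of 1.26. Grip2 had 60.7 CPM in inhibitory, 278 in Tph2 and 52.7 in Slc17a6 nuclei of the SNI with brush library, and 79.8, 283 and 51.6 CPM in the same classes of the hot water bath library. The Grip2 ratio was close to the same in both libraries, 2.41 (95% interval 1.89 to 2.87) and 2.46 (95% interval 2.25 to 2.66). Gria2 and Gria3, whose subunits these scaffolds bind, were not on the high side in the same nuclei.

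The auxiliary subunits went different ways. Neto1 stood at 113 CPM in inhibitory, 238 in Tph2 and 108 in Slc17a6 nuclei with SNI with brush, and at 196 CPM in inhibitory, 289 in Tph2 and 99.5 in Slc17a6 nuclei with the hot water bath. Neto2 stood at 115 CPM in inhibitory, 19.8 in Tph2 and 109 in Slc17a6 nuclei with SNI with brush, and at 72 CPM in inhibitory, 19.2 in Tph2 and 64.4 in Slc17a6 nuclei with the hot water bath. Both bind kainate receptors and slow their closing. In Tph2 nuclei Neto1 lay above Slc17a6 nuclei in both libraries, at 1.16 and 1.54, and Neto2 below, at -2.23 and -1.72. After thinning, Neto1 was seen in 25 of 26 Tph2 and 106 of 252 Slc17a6 nuclei of the hot water bath library, and Neto2 in 4 of 26 and 81 of 252. Cnih2 stood at 11.4 CPM in inhibitory, 19.8 in Tph2 and 10.5 in Slc17a6 nuclei of the SNI with brush library, and 5.96, 10.04 and 6.11 CPM in the same classes of the hot water bath library. Cnih3 stood at 6.78 CPM in inhibitory, 0 in Tph2 and 5.79 in Slc17a6 nuclei of the SNI with brush library, and 2.75, 1.83 and 12.6 CPM in the same classes of the hot water bath library. These cornichon proteins help AMPA receptors to the surface, and both were rare, with 221 UMIs of Cnih2 and 242 of Cnih3 in all. The Cnih2 ratio in Tph2 nuclei of the hot water bath library, 0.77 (95% interval -0.36 to 1.65), rests on 11 UMIs and is -0.42 after thinning.

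Between inhibitory and Slc17a6 nuclei no gene was at least 1.5-fold higher in both libraries, against 2.14% of all genes tested, and 2 of 28 were lower in both, Grin2c and Grin3a, against 1.79%. Grin2c lay at -0.85 (95% interval -1.69 to -0.10) and -1.52 (95% interval -3.11 to -0.44), from 20 and 6 UMIs in inhibitory nuclei. Within the SNI with brush library, 0 of 29 genes were higher in inhibitory nuclei, with 9.32% of all genes, and 4 were lower, Grin2c, Grin3a, Grm2 and Grm8, with 5.81% of all. Within the hot water bath library, 9 of 28 were higher, against 10.8% of all genes, and 7 lower, against 9.94%. The 9 were Gria3, Gria4, Grik2, Grik3, Grm7, Grm8, Neto1, Grip1 and Grip2, and the 7 were Grin2c, Grin2d, Grin3a, Grik1, Grik4, Grm3 and Cnih3. Of these 16, the calls of Grip1, Grip2 and Grin2d are lost without the inhibitory nuclei that hold a Tph2 UMI, and 12, all but Grin3a, Grm3, Cnih3 and Gria3, are lost or turned with inhibitory nuclei limited to those with Slc6a5, as given below. Grm8 was the gene past 1.5-fold in both libraries with opposite signs, -0.94 (95% interval -1.03 to -0.86) with SNI with brush and 0.87 (95% interval 0.79 to 0.94) with the hot water bath, where it is 0.32 with that limit.

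The inhibitory nuclei of the libraries differed in transmitter genes. Slc6a5 is the glycine transporter of glycinergic neurons. Of the 103 inhibitory nuclei in the SNI with brush library, 74 had at least 3 UMIs of Slc6a5 and 17 had none. In the hot water bath library 20 of 61 had at least 3 and 40 had none. Median UMIs per nucleus were 19494 without and 34597 with Slc6a5 (SNI with brush), and 31305.5 and 35323 (hot water bath). The part of depth in this split was not tested. The 40 nuclei without Slc6a5 in the hot water bath library also stood at 70.1 CPM for Lmx1b, a transcription factor of serotonergic and dorsal horn neurons, and 17.9 CPM for Tph2, against 0 and 1.33 CPM in the 20 with Slc6a5; in the SNI with brush library the values were 9.03 and 4.52 CPM without and 1.34 and 1.01 CPM with Slc6a5. Without the inhibitory nuclei that hold any Tph2 UMI, a setting chosen after the data were seen that leaves 54 of 61 with the hot water bath, the ratio to Slc17a6 nuclei there was 0.33 for both Grip1 and Grip2 and -0.58 for Grin2d, and these 3 came under 1.5-fold. Slc6a4, the serotonin transporter, had no UMI in either group of the hot water bath library and stood at 15.8 CPM without and 0 CPM with Slc6a5 in the SNI with brush library.

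Within the hot water bath library, 8 of 24 genes were at least 1.5-fold higher in inhibitory nuclei without than with Slc6a5, against 12.6% of all genes tested, and 3 lower, against 18.8%. The 8 were Gria1, Gria4, Grik3, Grm7, Grm8, Neto1, Grip1 and Grip2 and the 3 were Grik1, Grm3 and Grm4. Grm7 had 3813 CPM without and 1660.5 with Slc6a5, and Grip1 2194 and 991. Grik1 had 30.1 CPM without and 535 with Slc6a5, a log2 ratio of -4.14 (95% interval -4.65 to -3.69). Low Grik1 was thus not particular to Tph2 nuclei. Of kainate UMIs, Grik1 gave 1.02% and Grik2 86.9% in these inhibitory nuclei without Slc6a5. In the Tph2 nuclei of the same library the shares were 0.277% and 94.3%. In the SNI with brush library 5 of 28 were higher without Slc6a5, Gria1, Grik3, Grm8, Cnih2 and Cnih3, against 17.2% of all, and 3 lower, Grin2c, Grin3b and Neto1, against 12.8%. Gria1, Grik3 and Grm8 were thus on the high side of nuclei without Slc6a5 in both libraries, at 0.89 and 0.85 for Gria1, 0.76 and 1.35 for Grik3, and 0.61 and 0.78 for Grm8. Grm7 and Grip1 were not, with ratios of -0.07 and -0.21 in the SNI with brush library. With inhibitory nuclei limited to those with Slc6a5, a setting chosen after the data were seen, the hot water bath ratios to Slc17a6 nuclei were 0.39 for Grm7, 0.32 for Grm8, 0.25 for Gria4, -0.05 for Grik1 and -0.13 for Grip1, all under 1.5-fold.

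**Figure D5:**
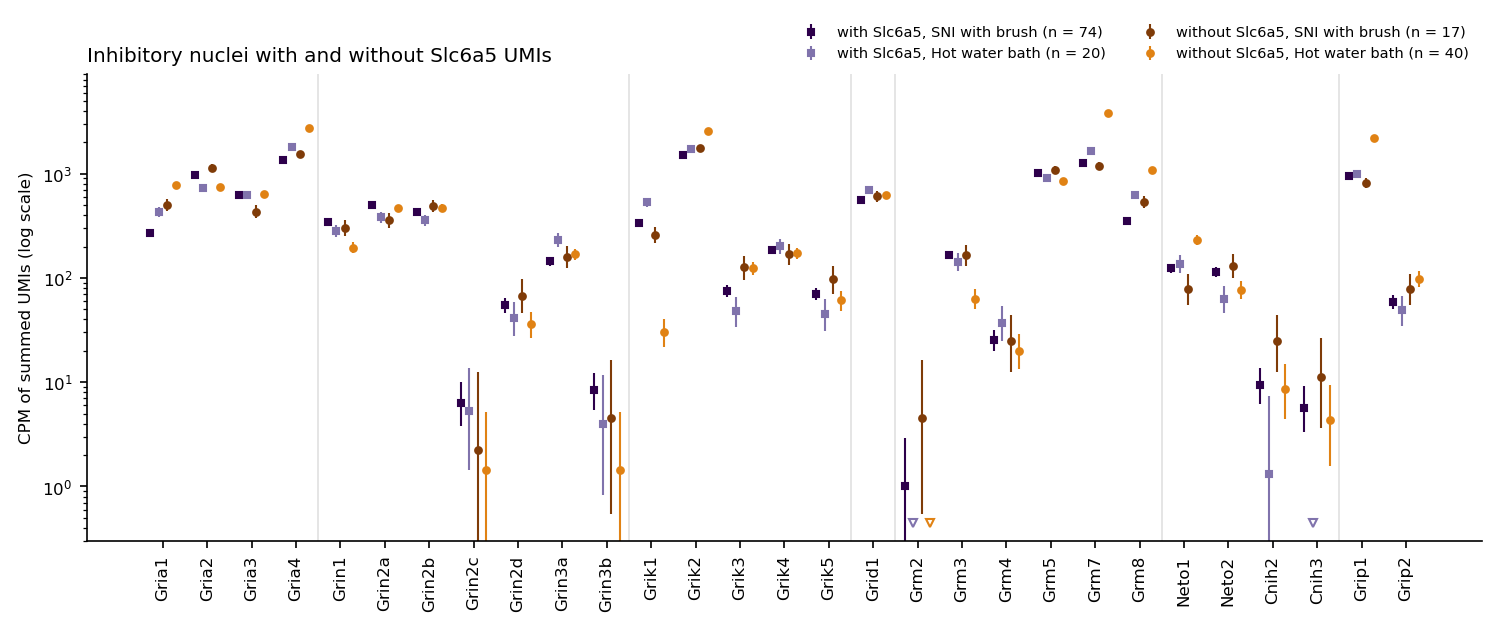
Summed level of each gene (CPM, log axis) in inhibitory nuclei with at least 3 Slc6a5 UMIs (squares) and with none (circles), in the SNI with brush library (dark) and the hot water bath library (pale); bars are exact 95% Poisson intervals for counting error and open triangles mark groups without a UMI. The 40 nuclei without Slc6a5 of the hot water bath library stand apart at Grm7 (3813 CPM) and Grik1 (30.1 CPM).

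Between the treatments, the comparison sets 1 library against 1 and describes these libraries. The shares over all genes set beside these counts differ with gene length, as given below. In Slc17a6 nuclei Grin3b, Grm2, Neto2 and Cnih2, 4 of 29, were past 1.5-fold on the high side with SNI with brush, against 26.6% of all genes tested, and 4 lower, Gria1, Grid1, Grm3 and Cnih3, against 8.24%. Gria1 had 266 CPM with SNI with brush and 490.4 CPM with the hot water bath, a log2 ratio of -0.88 (95% interval -0.97 to -0.80). Grm3 had 152 and 285 CPM, a ratio of -0.91 (95% interval -1.02 to -0.79), and Neto2 109 and 64.4 CPM, a ratio of 0.75 (95% interval 0.59 to 0.92). In inhibitory nuclei 8 of 28 were higher with SNI with brush, against 31.2% of all genes, and 6 lower, against 8.23%. The 8 were Grin2c, Grin2d, Grin3b, Grik1, Grm3, Neto2, Cnih2 and Cnih3, and the 6 were Gria1, Gria4, Grm7, Grm8, Neto1 and Grip1. With inhibitory nuclei limited to those with Slc6a5, 4 of the 6 came under 1.5-fold, at -0.42 for Gria4, -0.40 for Grm7, -0.15 for Neto1 and -0.07 for Grip1. Of the 8, 3 were still called with that limit. Grin2c, Grin2d and Grm3 came under 1.5-fold, at 0.13, 0.39 and 0.20, and Grik1 turned to -0.66. Grip1 was also under 1.5-fold, at -0.58, without the inhibitory nuclei that hold a Tph2 UMI. Gria1 was on the low side of both classes, at -1.14 in inhibitory nuclei, and Neto2, Cnih2 and Grin3b on the high side of both, whereas Grm3 and Cnih3 changed sides, at 0.85 and 1.21 in inhibitory nuclei. These values moved with the setting. Grm3 was 0.20 in inhibitory nuclei with the limit to Slc6a5, and -0.50 in Slc17a6 nuclei thinned to 9000 UMIs. Cnih3 in inhibitory nuclei was 0.52 after thinning and 3.14 with the limit to Slc6a5.

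The ratio between libraries moved with gene length. In Slc17a6 nuclei with genes parted by span into 5 groups of equal size, the median log2 ratio between SNI with brush and the hot water bath was 0.59 in the shortest group and -0.07 in the longest, which holds 20 of the 29 genes. In inhibitory nuclei these medians were 0.78 and -0.08. In the longest group, 13.8% of all genes were at least 1.5-fold higher with SNI with brush and 10.7% lower in Slc17a6 nuclei. In inhibitory nuclei these shares were 13.8% and 15.4%. The part of length in the values of single genes was not tested. Scaling by the median ratio over genes in place of total UMIs shifts all ratios between libraries by -0.21 in Slc17a6 and -0.24 in inhibitory nuclei, and then 2 and 5 genes were higher with SNI with brush. Neto2 then lay at 0.54 in Slc17a6 and 0.43 in inhibitory nuclei and Cnih2 at 0.56 in Slc17a6 nuclei, all under 1.5-fold. The share of mitochondrial UMIs, 0.493% over neuronal nuclei with SNI with brush and 0.149% with the hot water bath, and the summed level of 6 oligodendrocyte markers, 186 and 78.3 CPM, moved the same way, as did 6 astrocyte markers, at 56.0 and 22.1 CPM, and 8 liver markers, at 52.2 and 0.928 CPM. Their part was not tested.

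Within the Slc17a6 nuclei the genes varied from nucleus to nucleus in different degrees. Before thinning, Gria2, Gria4, Grin2b and Grik2 had a UMI in every one of 252 nuclei of the hot water bath library. Grik3 had none in 130 and Cnih3 none in 190. Over 16 genes with at least 1000 UMIs in these nuclei of each library, 73 of 120 pairs had a Spearman correlation of the same sign in both libraries. A single pair reached 0.3 in both, Gria3 with Gria4, at 0.40 over 113 nuclei with SNI with brush and 0.34 over 252 with the hot water bath. These are descriptions over nuclei that share a library, with levels scaled by each nucleus's own total. No such counts over pairs of other genes are given, so these say nothing particular to the receptor genes. Grm5 with Gria4 gave 0.12 with SNI with brush and 0.37 with the hot water bath.

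A set of 3 lists of partner genes were read beside the receptors. Of 16 AMPA receptor auxiliary genes with enough UMIs, 0 were at least 1.5-fold higher and 1 lower in inhibitory than in Slc17a6 nuclei of both libraries. Over all genes tested these shares were 2.14% and 1.79%, which also stand beside the counts of the other lists. The lower auxiliary gene was Nrn1, the gene of neuritin, with 13.6 CPM in inhibitory and 158 in Slc17a6 nuclei (SNI with brush) and 10.1 and 56.5 CPM (hot water bath). Of 23 scaffold and kinase genes of the postsynaptic density, 0 were past 1.5-fold in both libraries in either direction. Of 21 genes of extracellular organisers and RNA editing, 1 was higher and 2 lower. The higher one was Nrxn3, a presynaptic adhesion gene, with 6619 CPM in inhibitory and 2194 in Slc17a6 nuclei (SNI with brush) and 11134 and 2706 CPM (hot water bath), log2 ratios of 1.59 and 2.04. The lower ones were C1ql2, which binds kainate receptors, at -1.54 and -2.08, and Cbln1, which binds delta receptors, with 1.63 CPM in inhibitory and 13.1 in Slc17a6 nuclei (SNI with brush) and 0 and 2.07 CPM (hot water bath). In the Tph2 nuclei of the hot water bath library, 2 of 16 auxiliary, 3 of 23 density and 6 of 21 organiser genes were at least 1.5-fold higher than in Slc17a6 nuclei, and 4, 2 and 12 lower, beside the 14.3% and 26% of all genes given above. Nrxn3 reached 20509.9 CPM there.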

How the data were processed

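Nuclei of 2 libraries, 1 per treatment, were analysed from the deposited tables, which hold raw UMI counts per gene and nucleus as the authors left them after their own filter, whose rule no source used here states. Cell Ranger 5.0, Seurat and mm10 are named in the submitters' processing notes. No count column of other samples was present (0). Symbols were paired with GENCODE gene spans for length and position. Liver-gene nuclei and doublets called by Scrublet (in scanpy 1.11.5) in each library (2 with SNI with brush, 3 with the hot water bath) were left out, and nuclei were classed by transmitter UMIs.

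UMIs were summed per library and class and scaled to CPM, and log2 ratios with 0.5 UMI added carry exact 95% intervals that cover counting error only, since nuclei are not replicates. A gene was called past 1.5-fold with at least 20 UMIs over both classes, in both libraries for inhibitory against Slc17a6 nuclei. Where thinning is named, counts of nuclei with a UMI come from nuclei thinned to 9000 UMIs, with shallower nuclei left out. Ratios were tested on simulated data. Values in every class are given for each gene counted in a comparison and for the AMPA, Grin1 and Grin2 genes. Of the partner lists, genes at least 2-fold apart in one direction in both libraries are named. The genes and lists were chosen with earlier results of these data known. Other class limits, scaling, depth, floors, doublets and single nuclei were tried. Promoters come from RefSeq for GRCm38.p6, and protein sequences were not used here. Python 3.11.15, numpy 2.4.6, scipy 1.17.1 and pandas 2.3.3 were used.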

Additional observations from a re-analysis of the deposited data

Results flagged for a closer look

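Grm8 stood out because its ratio of inhibitory to Slc17a6 nuclei went opposite ways in the libraries, at -0.94 on the log2 scale with SNI with brush and 0.87 with the hot water bath. With inhibitory nuclei limited to those with Slc6a5, the hot water bath ratio was 0.32, under 1.5-fold. The difference between the libraries was not tested, as each treatment has 1 library.

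The 15 nuclei of the SNI with brush library with more liver-gene than neuron-gene UMIs enter no comparison and held UMIs of receptor genes above the limit that a count of 0 allows. Grm8 stood at 301 CPM in them, from 116 UMIs in 10 nuclei, and Grip1 at 104 CPM. Grik1 stood at 26.0 CPM, Grid1 at 20.8 CPM, and Grik5 and Gria2 at 18.2 CPM each. Grin2a and Grm7 had 13.0 CPM each, and Gria3, Gria4 and Grik2 10.4 CPM each.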

How the results depend on the processing

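Of the summary values under the alternatives, 225 kept their direction and size, 37 moved and 5 reversed. Ratios of called genes and subunit shares of Tph2 minus Slc17a6 nuclei were counted together, and 713 were kept. Of the ratios, 56 came under 1.5-fold and 7 reversed. Some settings leave a class as it was, such as 20 Tph2 UMIs for Slc17a6 nuclei, so part of the kept values could not move. With inhibitory nuclei limited to those with Slc6a5, 14 ratios were kept, 16 came under 1.5-fold and 4 reversed. The cause was not tested unless named. Family shares are given as points, inhibitory minus Slc17a6 nuclei unless said otherwise. With 90% of transmitter UMIs of one kind, the NMDA, delta and metabotropic differences with SNI with brush were 0.715, -0.64 and -1.64, and the AMPA and kainate differences with the hot water bath 2.35 and -1.66. With 5 transmitter UMIs, the hot water bath AMPA and metabotropic differences were 2.03 and 6.54. With the mean over nuclei, the SNI with brush NMDA and metabotropic differences were -0.648 and -1.63, the hot water bath AMPA and kainate differences reversed to -0.0081 and 0.0526, and the Tph2 minus Slc17a6 differences were 5.16 for AMPA and -3.57 for delta. With nuclei thinned to 9000 UMIs, the SNI with brush AMPA and kainate differences were 0.749 and 2.4, the hot water bath AMPA, NMDA and kainate differences -0.0496, -4.56 and 0.566, the first and last reversed, and the Tph2 minus Slc17a6 differences 5.67 for AMPA and 3.8 for metabotropic genes. Thinning also reversed Grm2 in inhibitory nuclei with SNI with brush to 0.134 and Cnih2 in Tph2 nuclei to -0.424. With the top nucleus of each gene left out, the metabotropic difference was -1.52 with SNI with brush and 6.19 with the hot water bath, and with no inhibitory nucleus holding a Tph2 UMI it was 6.37 with the hot water bath. With called doublets kept, Grin3b in Tph2 nuclei reversed to 0.026.

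Counts of genes moved as follows. Lower in inhibitory nuclei of both libraries were 1 gene after thinning, 1 with at least 100 UMIs and 0 at 2-fold. Higher with SNI with brush in Slc17a6 nuclei were 2 with size factors, 2 with at least 100 UMIs and 2 at 2-fold, and lower 1 at 2-fold. Higher with SNI with brush in inhibitory nuclei were 5 with size factors, 3 after thinning, 4 with at least 100 UMIs and 2 at 2-fold, and lower 3 at 2-fold. Size factors shift the ratios of SNI with brush to hot water bath by -0.21 in Slc17a6 and -0.24 in inhibitory nuclei and those of the 3 Tph2 nuclei with SNI with brush by -0.19, and other class ratios by under 0.1.

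Limiting inhibitory nuclei to those with Slc6a5, which was chosen after the data were seen and leaves 20 nuclei with the hot water bath, moved most. Genes higher and lower in both libraries were then 1 and 1. Genes higher with SNI with brush in inhibitory nuclei were 5, of which 3 were among the 8 of the main setting. The hot water bath differences were -2.14 for NMDA, 1.61 for kainate (reversed), -2.15 for delta and 1.61 for metabotropic genes. Grik3, Grip1 and Grip2 reversed to -0.283, -0.128 and -0.0487 against Slc17a6 nuclei, and Grik1 to -0.663 for SNI with brush against the hot water bath. Of the 6 genes lower with SNI with brush in inhibitory nuclei, Gria4, Grm7, Neto1 and Grip1 came under 1.5-fold. No paired analysis was possible because each treatment has 1 library, and for the same reason no replicate could be left out. Classes of 3 Tph2 nuclei and genes under about 20 UMIs limit what this depth can show.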
